A study of Homo sapiens with 12 samples.

Results

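The comparison of both doxorubicin-resistant lines with both sensitive groups was read from 12 bead arrays of SK-N-Be(2)C, an established human neuroblastoma cell line with bone marrow listed as its origin. The sensitive side held 6 arrays, 3 of the parental cells (WT) and 3 of parental cells exposed intermittently to vorinostat (SAHA), a histone deacetylase inhibitor (WT-v). The resistant side held 6 arrays, 3 of the line selected in doxorubicin (DoxR) and 3 of the line selected in doxorubicin with vorinostat given whenever the dose was raised (DoxR-v). Doxorubicin was raised stepwise from 2 log steps below to about 2 log steps above the inhibitory concentration of the parental cells, with 5 passages at the last step and 6 to 12 months in all. The main effect of resistance was the mean of DoxR and DoxR-v minus the mean of WT and WT-v, on the scale of log2 normalized signal. All 12 arrays of the series entered it, and 12138 genes were tested. Calls required a fold change above 1.5 together with an adjusted p below 0.1 (limma), and weight was given to genes whose 6 resistant arrays all lay on one side of the 6 sensitive arrays. The gap of such a gene is the lowest array of the higher side minus the highest array of the lower side.

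Each group was labelled as triplicate specimens, and nothing states that they came from separate cultures. The resistant side is 2 selected lines, so the p-values measure the spread between specimens and not between independent selections. In bulk RNA, a change in the share of cells that express a gene and a change in RNA per cell cannot be told apart. Between 31.3% and 36.5% of probes were detected on each array. Every array correlated better with its own group than with any other, and the first 3 principal components took 37.6%, 23.2% and 22.4% of the variance. Of 18 listed markers of adrenergic neuroblastoma, 16 were tested and all 16 were detected in WT, WT-v and DoxR-v, with 15 detected in DoxR. Of 11 blood cell markers 4 were tested, and 1 or 2 of them were detected on all arrays of a group.

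Doxorubicin intercalates into DNA and traps topoisomerase II on cut DNA. Cells selected in it are known for ABCB1 (P-glycoprotein), a membrane pump that exports anthracyclines, and for changes in drug metabolism, cell death and differentiation state. Neuroblastoma arises from the sympathoadrenal neural crest, and its cells can hold an adrenergic, neuron-like state or a mesenchymal state with more matrix and motility genes.

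The main effect called 2148 genes (17.7% of those tested), 1146 higher (9.44%) and 1002 lower (8.26%) in resistant cells. With median scaling in place of quantile normalization 71.1% of called genes were higher, against 53.4%, so the balance of directions depends on the scaling. The 6 resistant and 6 sensitive arrays did not overlap in 1085 genes (8.94%), 562 with the resistant side higher (4.63%) and 523 with it lower (4.31%). Of the called genes 820 did not overlap, 428 higher (3.53% of genes tested) and 392 lower (3.23%). The gap was mostly narrow, with a median of 0.182 over the 1085 genes, and it passed 1 on the log2 scale in 46 genes, 27 higher and 19 lower.

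The main effect averages a comparison without vorinostat (DoxR minus WT) and one with vorinostat (DoxR-v minus WT-v), which share no array. Over 12138 genes their effects had a correlation of 0.0214, and 49.8% of genes had the same sign in both. This is a description across genes, which are not independent. DoxR minus WT called 4091 genes (33.7%) and DoxR-v minus WT-v called 3088 (25.4%). Of the 2148 genes of the main effect, 682 (5.62% of genes tested) were called with the same sign in both comparisons, 911 only without vorinostat, 476 only with vorinostat, 76 with opposite signs and 3 in neither. The difference between the comparisons was itself called for 5149 genes (42.4%), and the main effect of vorinostat for 1861 (15.3%). Resistance took 35.6% of the sum of squares between groups, vorinostat 30.3% and their difference 34.1%. A shared effect of resistance was thus held by a minority of the genes that differed, and 516 genes were both called with the same sign in each comparison and free of overlap, 287 higher and 229 lower.

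**Figure D1:**
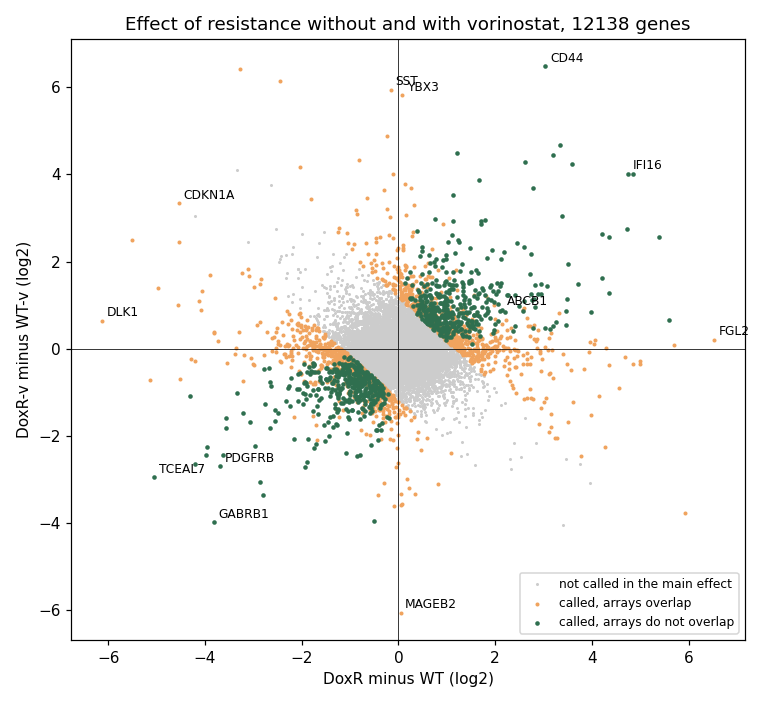
Each point is 1 of 12138 genes, with DoxR minus WT on the x axis and DoxR-v minus WT-v on the y axis (log2). Called genes without overlap (green) all lie in the lower left or upper right, which the rule of no overlap fixes in advance. Called genes with overlap (orange) also extend along both axes.

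Some genes were detected on 1 side only, and not all of these stood far apart. MOSPD2 was at log2 −0.58, and the arrays of CPEB1 overlapped. There were 16 genes detected on all 6 resistant and no sensitive array, among them IFI16, CALCB, PROK2, ITGA6, CCNO, DGKI, MOXD1 and RARB. The reverse held for 12 genes, among them GABRB1, TCEAL7, AMHR2, TRAF3IP2, RTN4R and ADGRG1. The window from 250 bases before to 50 after the start was taken from RefSeq (GRCh38.p14), which held a window for 9701 of the 12138 genes (the first listed start was used for counts). The median window of a tested gene held 26 CG dinucleotides. It held 25 in the called genes without overlap in either direction, 24 over 13 of the 16 genes detected on the resistant side only and 9 over 9 of the 12 genes detected on the sensitive side only. Fewer than 10 were present in 12.9% of all windows, in 3 of those 13 and in 5 of those 9. The windows of IFI16 and GABRB1, the widest gap in each direction, and of ABCB1, the drug pump, are shown with every CG in capitals, 5′ to 3′.
IFI16, first listed start (chr1:159008741-159009040, plus strand): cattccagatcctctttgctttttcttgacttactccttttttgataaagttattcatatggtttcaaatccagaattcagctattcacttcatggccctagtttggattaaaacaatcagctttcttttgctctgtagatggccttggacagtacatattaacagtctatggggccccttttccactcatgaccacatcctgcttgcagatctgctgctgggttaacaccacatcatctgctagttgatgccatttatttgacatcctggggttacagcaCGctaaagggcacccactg
IFI16, second listed start (chr1:159009657-159009956, plus strand): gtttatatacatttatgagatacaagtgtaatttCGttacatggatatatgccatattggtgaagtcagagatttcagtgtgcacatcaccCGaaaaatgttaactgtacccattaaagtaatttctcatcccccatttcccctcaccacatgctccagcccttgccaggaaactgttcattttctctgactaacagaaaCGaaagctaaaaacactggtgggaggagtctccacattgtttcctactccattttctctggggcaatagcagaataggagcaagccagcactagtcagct
GABRB1 (chr4:47031317-47031616, plus strand): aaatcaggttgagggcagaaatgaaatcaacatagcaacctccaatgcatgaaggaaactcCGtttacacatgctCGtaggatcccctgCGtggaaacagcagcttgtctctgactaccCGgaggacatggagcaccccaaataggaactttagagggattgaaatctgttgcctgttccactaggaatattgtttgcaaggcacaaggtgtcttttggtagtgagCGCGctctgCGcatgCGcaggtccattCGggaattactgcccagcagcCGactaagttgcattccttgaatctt
ABCB1, first listed start (chr7:87713246-87713545, minus strand): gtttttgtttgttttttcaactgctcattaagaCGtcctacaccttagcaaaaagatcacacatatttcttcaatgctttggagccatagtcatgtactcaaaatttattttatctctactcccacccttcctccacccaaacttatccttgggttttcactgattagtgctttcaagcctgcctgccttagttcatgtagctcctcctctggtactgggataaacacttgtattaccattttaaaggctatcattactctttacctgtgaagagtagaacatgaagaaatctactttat
ABCB1, second listed start (chr7:87600835-87601134, minus strand): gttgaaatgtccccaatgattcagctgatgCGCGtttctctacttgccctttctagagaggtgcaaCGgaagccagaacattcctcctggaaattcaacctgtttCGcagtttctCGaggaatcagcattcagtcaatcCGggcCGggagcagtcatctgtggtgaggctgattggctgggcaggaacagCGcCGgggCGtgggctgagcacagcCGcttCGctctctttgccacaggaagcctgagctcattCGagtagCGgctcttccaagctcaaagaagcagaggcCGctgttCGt
The windows of IFI16 held 1 and 3 CG dinucleotides and that of GABRB1 held 10. The first window of ABCB1 held 1 and the second 16. The arrays do not tell which start was used.

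IFI16, an interferon-inducible sensor of DNA, had the widest gap of the higher genes. The sensitive arrays had log2 signals of 4.80, 5.09 and 5.23 (lowest, median and highest) and the resistant arrays 8.77, 9.67 and 9.85. No sensitive array detected it, so that it was at least 15-fold higher in resistant cells (adjusted p = 5.6e-10, limma), and it was higher by log2 4.74 without and 4.02 with vorinostat. CD44, a hyaluronan receptor of mesenchymal cells, had sensitive signals of 4.40, 5.96 and 7.60 and resistant signals of 10.50, 10.72 and 11.11. The 6 resistant arrays lay within a narrow range while the sensitive arrays split by vorinostat, and the main effect was log2 4.76 ± 0.09 (SE, adjusted p = 3.0e-12). CD44 rose by log2 3.04 without and by 6.48 with vorinostat, and no WT-v array detected it while all WT arrays did.

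Secreted neuropeptides and neuronal proteins followed. NMU, which encodes neuromedin U, had sensitive signals of 5.39, 6.53 and 7.35 and resistant signals of 10.23, 10.40 and 10.64. CALCB, which encodes a calcitonin gene-related peptide, went from 4.52, 4.69 and 5.29, with no sensitive array detecting it, to 8.08, 8.55 and 9.15, at least 8.38-fold higher. NPY, neuropeptide Y, was already among the brighter signals in sensitive cells at 8.48, 10.42 and 11.69 and reached 13.16, 13.62 and 14.13. In all 3 the groups did not overlap, and the sensitive arrays spread more than the resistant ones for NMU and NPY. BDNF, a neurotrophin, was higher by log2 3.74 ± 0.14 on its brightest probe, while its 3 other tested probes, each detected on 1 array, differed by log2 0.01 to 0.07. GRIN1, the obligatory subunit of NMDA receptors, was higher by log2 5.39 without and 2.56 with vorinostat, and CNTNAP2, which clusters axonal potassium channels, by 2.61 and 4.28. No WT array detected BDNF or GRIN1, so their effects without vorinostat start from signals near background.

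Regulators of signalling also stood apart. SOCS2, a feedback inhibitor of cytokine receptors, had sensitive signals of 5.26, 5.54 and 6.34 and resistant signals of 9.22, 10.25 and 10.65 (log2 4.42 ± 0.18). DUSP6, a phosphatase that inactivates ERK, had sensitive signals of 5.98, 6.42 and 6.63 and resistant signals of 9.49, 9.56 and 9.71 (log2 3.20 ± 0.11, adjusted p = 5.6e-10). DUSP6 was one of the most even of these genes, at log2 3.37 without and 3.03 with vorinostat, and the difference was not called (adjusted p = 0.26). LMO2, a transcriptional cofactor of blood cell development, was higher by log2 2.73 ± 0.10, TUBA4A, an alpha-tubulin, by 3.91 ± 0.16, CAPN6, a calpain that binds microtubules, by 3.43 ± 0.18, and GSTO2, a glutathione transferase, by 2.37 ± 0.13. ELAPOR2, a neighbour of ABCB1, was higher by log2 3.23 ± 0.11. Second probes of CD44, SOCS2 and DUSP6 were called in the same direction at log2 3.04, 3.37 and 1.57.

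GABRB1, a subunit of the GABA-A receptor, had the widest gap of the lower genes. The sensitive arrays had 8.42, 8.48 and 8.71 and the resistant arrays 4.36, 4.56 and 5.01, with no resistant array detecting it. It was at least 8.08-fold lower in resistant cells, by about the same amount in both comparisons (log2 −3.82 and −3.98, difference adjusted p = 0.64), and its second probe was lower too (log2 −1.62). TCEAL7, a small X-linked nuclear protein, had sensitive signals of 7.19, 8.88 and 10.06 and resistant signals of 4.51, 4.64 and 5.12, at least 9.56-fold lower. NELL1, a secreted protein that promotes bone formation, had 8.82, 9.04 and 9.28 in sensitive and 5.51, 5.96 and 6.43 in resistant arrays (log2 −3.08 ± 0.12). The sensitive arrays of GABRB1 and NELL1 were nearly alike whether or not vorinostat had been given, whereas those of TCEAL7 split by it.

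Other genes with wide gaps on the lower side had various roles. PDGFRB, the beta receptor of platelet-derived growth factor, had sensitive signals from 9.12 to 9.71 and resistant signals from 5.27 to 7.22 (log2 −3.19 ± 0.14, adjusted p = 5.4e-09). AMHR2, the receptor of anti-Müllerian hormone, was at least 6.30-fold lower. SOSTDC1, an antagonist of BMP and Wnt signals, was at log2 −2.96 ± 0.16, the collectin COLEC11 at −2.69 ± 0.09, IGFBP4, which binds insulin-like growth factors, at −2.02 ± 0.14, and FGL1, a secreted fibrinogen-like protein, at −2.12 ± 0.11. The adaptors CARD9 and TRAF3IP2, of innate immune and interleukin-17 signalling, were at log2 −3.03 ± 0.16 and at least 3.60-fold lower. TEX19, a germline protein, was at log2 −2.60 ± 0.12, PALLD, an actin-bundling protein, at −2.24 ± 0.12, and MPP1, a membrane scaffold, at −2.01 ± 0.11. LIN28B, which blocks maturation of let-7 microRNAs and is highly expressed in neuroblastoma, fell from sensitive signals of 11.13, 11.29 and 11.41 to resistant signals of 9.18, 9.60 and 9.86 (log2 −1.71 ± 0.09). Of 4 further FGL1 probes 3 were called lower and 1 was not (log2 −0.32).

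**Figure D2:**
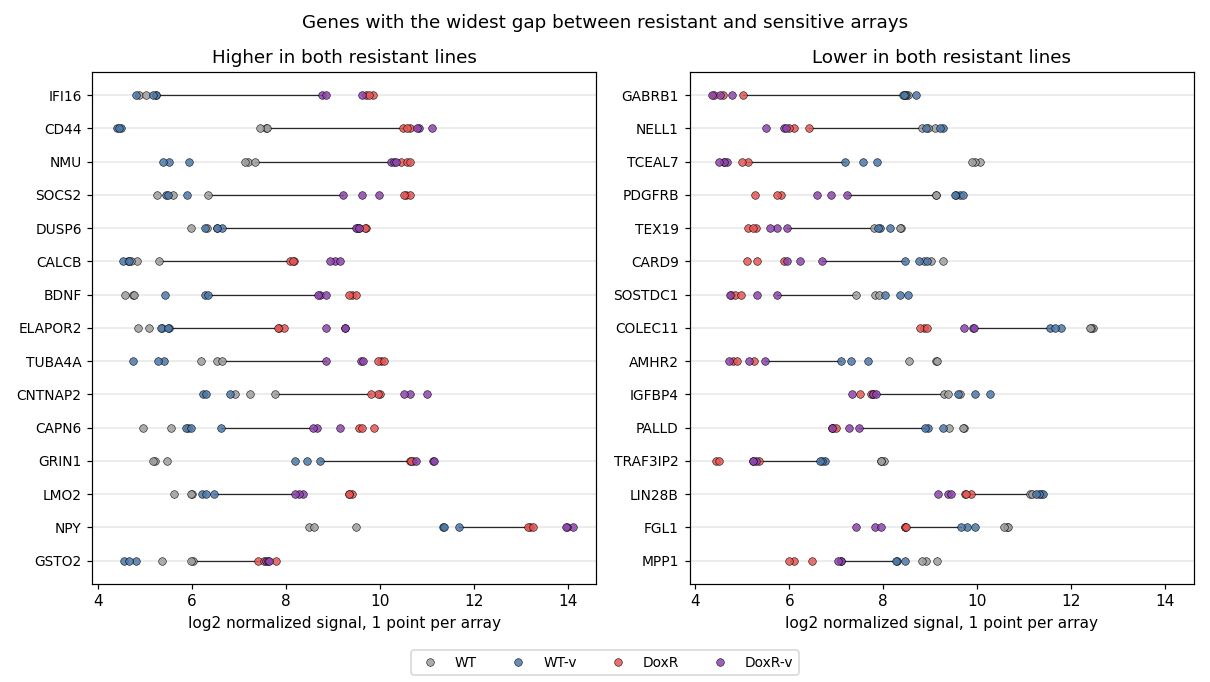
Log2 normalized signal of each array for the 15 higher (left) and 15 lower (right) genes with the widest gap, in which a black line spans the gap between the 6 resistant and 6 sensitive arrays. IFI16 and GABRB1 have the widest gaps (3.54 and 3.41), and groups of the same side still differ in many genes, as for CD44 and GRIN1.

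The rule of no overlap also has an edge. The called genes just inside it were CDC14A, KIF3C and WDR33, with gaps of 0.00 when rounded, and those just outside were JDP2, FAAH and SBK1. These 6 genes differed by log2 0.60 to 0.87 in either direction.

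ABCB1 was higher in all 6 resistant arrays. The sensitive arrays had 10.19, 10.53 and 10.70 and the resistant arrays 11.26, 12.01 and 12.67 (log2 1.52 ± 0.11, 2.87-fold, adjusted p = 6.1e-07). ABCB1 rose by log2 2.15 without and by 0.89 with vorinostat, a difference that was called (log2 −1.25, adjusted p = 0.0010), and a second probe gave 2.48 and 0.80. Of 9 tested drug efflux transporters 3 were called higher and 1 lower (44.4% against 17.7% of all genes), of which ABCB1 and ABCC5 were called in both comparisons. ABCC4, an exporter of nucleotides and drugs, was higher by log2 0.93 ± 0.13 but its arrays overlapped. ABCA2, a lipid transporter, was called higher only without vorinostat (log2 1.72 and −0.38). ABCC5, which exports cyclic nucleotides, was lower with sensitive signals of 9.22, 9.53 and 9.73 and resistant signals of 7.62, 8.25 and 8.64 (log2 −1.30 ± 0.09), and its second probe was not called (−0.41).

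Many neighbours of ABCB1 were called higher in the main effect, and fewer in both comparisons. Of 23 tested genes of the list around ABCB1 on chromosome 7, 13 were called higher and 1 lower (60.9% against 17.7% of all genes), 8 of them higher without overlap and 5 higher in both comparisons, and their median effect was log2 0.66 against −0.01 for all genes. CROT, a peroxisomal carnitine acyltransferase next to ABCB1, had sensitive signals of 5.44, 6.03 and 6.27 and resistant signals of 7.07, 8.09 and 8.85 (log2 2.10 ± 0.15). It rose by log2 2.94 without and 1.25 with vorinostat. TMEM243 rose by log2 1.82 and 0.94, and CYP51A1, a sterol demethylase, by 1.61 and 0.85. Closest to ABCB1 the rise was larger without vorinostat, and for SLC25A40 and DBF4 it was seen without vorinostat (log2 2.19 and 2.71) and not called with it (−0.38 and 0.30). Farther along, the run of BET1, CASD1, SGCE and PEG10 was called higher without overlap, with PEG10, an imprinted retrotransposon-derived gene, at log2 1.74 and 1.38. Windows of 15 neighbouring measured genes over the genome were ranked by how many were called higher without overlap, against 3.53% of all genes. Of the 15 from MTERF1 to PEG10, which held the most, 9 were. Of the 15 from TMEM60 to ABCB1, 6 were, as in a window of chromosome 10 (MINPP1 to KIF20B). These windows were picked by this count, so it is no test of the place.

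**Figure D3:**
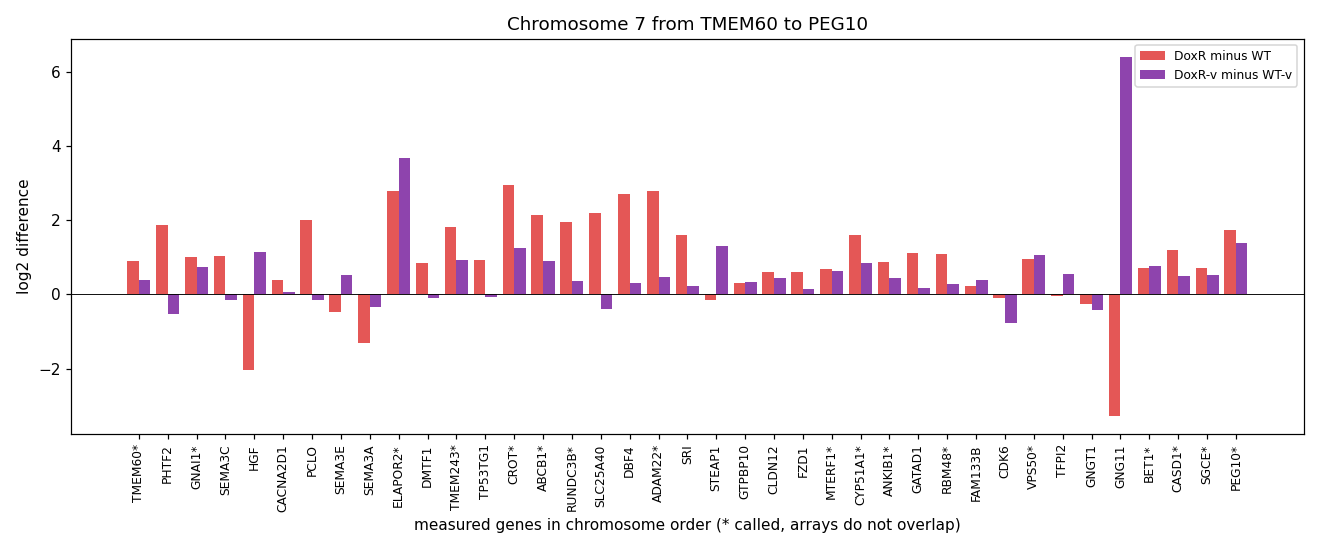
Log2 difference of each measured gene of chromosome 7 from TMEM60 to PEG10 in gene order, for DoxR minus WT (red) and DoxR-v minus WT-v (purple). An asterisk marks called genes whose 6 resistant and 6 sensitive arrays did not overlap, such as ELAPOR2, CROT and ABCB1, and most bars near ABCB1 are longer in red.

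The position of the shared genes was uneven over the genome. Over all genes 3.53% were called higher without overlap and 3.23% lower. On chromosome 10, 62 of 472 genes were called higher without overlap and 5 lower, and their median effect was log2 0.24 without and 0.28 with vorinostat over all 472. On chromosome 6 the counts were 7 higher and 74 lower, with medians of log2 −0.24 and −0.36 over 613 genes. The median without vorinostat was −0.11 with the deposited normalized values and −0.03 with median scaling, which left −0.36 with vorinostat. Median scaling also shifted the median of all genes. Less that median, the main effect of chromosome 6 was log2 −0.30, and it was −0.14 with the deposited values and −0.30 with median scaling. Of the genes of chromosome 6, 53.7% were lower in both comparisons, against 26.2% of the 12112 genes placed on chromosomes, and of those of chromosome 10, 50.8% were higher in both, against 23.6%. Chromosome 22 had 0 higher and 26 lower of 302 genes, and there the shift was mostly without vorinostat (medians −0.62 and −0.14). When the signals of each array were centred on the mean of the gene and the median taken over the chromosome, the resistant arrays of chromosome 6 lay between −0.21 and −0.13 and the sensitive arrays between 0.09 and 0.24. Those of chromosome 10 lay between 0.04 and 0.24 on the resistant side and between −0.27 and 0.00 on the sensitive side. Chromosomes 4, 6 and 10 were the 3 of 23 on which the sides did not overlap.

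Blocks of at least 45 neighbouring measured genes gave a finer view. These blocks were laid after the values by chromosome had been seen. Of 257 blocks, 67 had a median beyond log2 0.3 in either direction without vorinostat and 42 with it, and 12 passed it in the same direction in both comparisons, 2 higher and 10 lower, while 1 passed it in opposite directions. The alternatives were run on 4 of these 12 blocks, and with the deposited normalized values only the block of ABCB1 still passed the limit in both comparisons. The higher blocks ran from HGF to SDHAF3 on chromosome 7 (medians 0.68 and 0.49, deposited values 0.37 and 0.35) and from DUSP13B to HTR7 on chromosome 10 (0.37 and 0.49, deposited values 0.17 and 0.25). The latter also missed the limit in 1 or both comparisons without background correction (0.22 and 0.29) and at an offset of 50 (0.26 and 0.35). The lower blocks included the last 2 of chromosome 3, from MRPL47 to SNORA4 (−0.34 and −0.64) and from RFC4 to RPL35A (−0.58 and −0.64, deposited values −0.28 and −0.29), 3 of the long arm of chromosome 4, 3 of chromosome 6 and the last of chromosome 22. The last block of chromosome 19, from ZNF543 to MZF1, which is rich in zinc finger genes, had medians of −0.65 and −0.58. Of its 45 genes 24 were called lower and 18 of them without overlap, against 8.26% and 3.23% of all genes. Its medians were −0.22 and −0.24 with the deposited values, −0.28 and −0.31 without background correction and −0.34 and −0.58 with median scaling. Whether DNA copy number moved with these blocks was not tested.

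**Figure D4:**
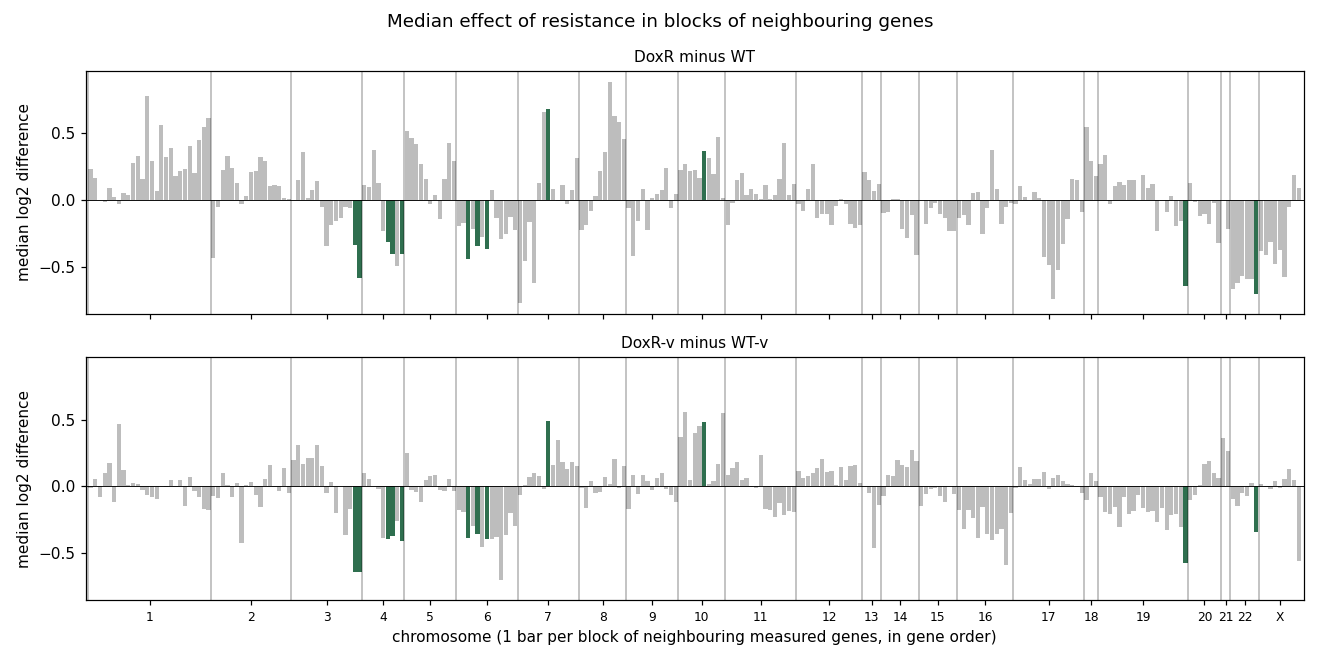
Median log2 difference in 257 blocks of neighbouring measured genes in chromosome order, for DoxR minus WT (top) and DoxR-v minus WT-v (bottom). Green bars mark the 12 blocks beyond log2 0.3 in the same direction in both, and most other blocks that stand out in the top panel do not do so in the bottom panel.

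Several called genes lay in these blocks. ABCC5 lies in the last blocks of chromosome 3 with RFC4, a subunit of the clamp loader (log2 −0.87 ± 0.10), and RPL35A, a ribosomal protein (−0.60 ± 0.10). MSMO1, HAND2, PALLD and ANKRD37 lie in the last block of chromosome 4. SIRT1, PFKP, PFKFB3, VCL, MCM10 and IFIT1 lie on chromosome 10, and BRD2, RXRB, EZR, NEU1, SIRT5 and LIN28B on chromosome 6. Each of these genes moved in the direction of its block or chromosome, whereas GSTA4 and MOXD1 on chromosome 6 moved against it, and the part of position in their effects was not tested.

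Drug metabolism and antioxidant genes held a few shared changes. Of 16 tested anthracycline targets and reductases 4 were called higher and 0 lower (25% against 17.7% of all genes). NQO1, a quinone reductase that can act on anthracyclines, had sensitive signals of 8.29, 8.73 and 9.08 and resistant signals of 9.72, 9.95 and 10.23 (log2 1.24 ± 0.09), with log2 1.35 without and 1.13 with vorinostat. The carbonyl reductase CBR3 and the aldo-keto reductase AKR1C3 were higher by log2 1.17 ± 0.19 and 1.27 ± 0.13 with overlapping arrays. AKR1C2 was higher by log2 3.01 without and lower by −1.22 with vorinostat. Of 34 glutathione and antioxidant enzymes 6 were called higher and 1 lower (20.6%, near the 17.7% of all genes). GSTK1 was higher by log2 1.48 ± 0.11 in the main effect, GSTA4 by 0.80 and 0.96, and GSTM3 by 0.75 and 0.72. GSTM4 was called without vorinostat only (log2 1.04 and 0.26).

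Most genes named here of cell death and the cell cycle were called in 1 comparison only. Of 16 BCL2 family genes 1 was called higher and 3 lower, of 18 death receptor and caspase genes 1 and 2, of 20 p53 genes 2 and 3, of 42 DNA repair genes 3 and 4 and of 30 mitotic genes 2 and 1. These shares, from 10% to 25%, lie around the 17.7% of all genes. BCL2L13 (log2 −0.84 ± 0.10), BAX (−0.64 ± 0.13) and BAK1 (−0.63 ± 0.16), which promote mitochondrial death or mitophagy, were called lower in the main effect, BCL2, an inhibitor of apoptosis, higher without vorinostat only (1.06 and 0.17). The calls of BAX and BAK1 were lost with median scaling, and a second BAX probe was at log2 0.17. TNFRSF10B, a TRAIL receptor, was lower by log2 −1.57 without and −0.39 with vorinostat. CDKN1A, the p53-inducible inhibitor of cyclin-dependent kinases, moved in opposite directions, log2 −4.54 without and 3.34 with vorinostat, so that its main effect of −0.60 describes neither line. TP53I3 and GADD45B were shared, at log2 0.65 and 0.72 and at 1.23 and 0.64. Among repair and replication genes, XRCC6, a subunit of Ku, was lower by log2 −0.90 ± 0.12 and MCM10, a replication initiation factor, higher by 0.77 ± 0.10.

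Of 22 tested adrenergic transcription factors 2 were called higher and 4 lower (27.3%), 3 of them lower without overlap and 2 lower in both comparisons. HAND2, a factor of sympathetic neuron development, had sensitive signals of 11.01, 11.52 and 11.81 and resistant signals of 9.82, 10.23 and 10.65 (log2 −1.31 ± 0.14, adjusted p = 1.5e-05). TWIST1, its partner in neuroblastoma and a mesenchymal factor, had a median of 11.30 in sensitive and of 9.77 in resistant arrays, again without overlap (log2 −1.60 ± 0.09). HAND2 fell by log2 1.25 and 1.37 and TWIST1 by 1.77 and 1.43 without and with vorinostat, and neither difference was called. LMO3 was detected on every sensitive and no resistant array and was at least 1.47-fold lower, but it was called without vorinostat only (log2 −1.82 and −0.57), and EBF1 was higher by log2 1.12 ± 0.15. STMN2 (log2 −0.68 ± 0.08) and GAP43 (−0.75 ± 0.09), neuronal growth proteins, were lower in the main effect. For STMN2 the difference was called (log2 −0.687), with the larger decrease under vorinostat. Of the 16 adrenergic marker genes 0 were called higher and 5 lower (31.2%). Enzymes of catecholamine synthesis differed between the lines. TH, the first enzyme, was at log2 −3.37 without and 0.01 with vorinostat, DBH, which makes noradrenaline, at −4.09 and 0.88, and SLC18A1, a vesicular monoamine transporter, at −1.98 and 0.43, while MAOA, which degrades monoamines, was at 2.72 and 0.53.

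Mesenchymal and matrix genes changed often and in both directions. Of 36 tested 12 were called higher and 6 lower (50%), 5 and 4 of them without overlap, and the median was log2 0.03. S100A11, a calcium-binding protein, rose from sensitive signals of 8.63, 9.06 and 10.03 to resistant signals of 10.87, 11.46 and 11.90, by log2 2.19 without and 2.21 with vorinostat. TGFBR2, a receptor of TGF-beta, rose by log2 1.94 and 2.26. Both were among the most even changes. The genes that were lower without overlap included TWIST1 and the collagens COL5A1 (log2 −1.57), COL6A1 (−1.65) and COL6A2 (−0.89), named after their values were seen. VIM, the filament vimentin, was higher without vorinostat (log2 4.34) and not called with it (−0.38), and LAMA4, a laminin chain, was at −3.54 and −0.33. Of 8 fibroblast markers 6 were tested. The log2 of their summed signal, to which the brightest genes contribute most, ranged from 11.24 to 12.41 over the sensitive arrays. It was lower in DoxR (9.23 to 9.42) and higher in DoxR-v (12.71 to 13.29). PDGFRB was lower in both lines, DCN was at log2 −3.30 and 0.38 and COL3A1 at 3.11 and −1.90. The part of cell makeup in the mesenchymal list was not tested.

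Cytoskeletal genes followed. Of 41 actin regulators 8 were called higher and 7 lower (36.6%). The focal adhesion proteins ZYX and VCL were higher by log2 1.27 ± 0.11 and 0.95 ± 0.10, and TAGLN2 by 1.20 ± 0.11, all without overlap, whereas EZR, which links actin to the membrane, was at −0.74 ± 0.11. Of 35 tubulin and microtubule genes 7 were called higher and 4 lower (31.4%), with MAPT, the protein tau, at log2 1.20 ± 0.12.

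Neuronal signalling genes were called at shares above that of all genes. Of 33 axon guidance genes 10 were called higher and 9 lower (57.6%). SEMA6A and UNC5A, a semaphorin and a netrin receptor, were at log2 −1.14 ± 0.11 and −1.52 ± 0.15, and PLXNA4 and NCAM2, a semaphorin receptor and an adhesion molecule, at 1.64 ± 0.13 and 1.02 ± 0.16. Of 32 genes of synaptic vesicles and exocytosis 10 were called higher and 2 lower (37.5%). SYT4, a synaptotagmin, was higher by log2 0.98 ± 0.11 without overlap, and RAB27B, of vesicle release, mainly without vorinostat (3.16 and 0.37). Of 19 neuropeptide and granin genes 6 were called higher and 0 lower (31.6%). Beside CALCB and NPY, PROK2, which encodes a prokineticin, was at least 4.11-fold higher in the mean of both lines, a bound that need not hold for each line. Its rise was larger with vorinostat (difference log2 3.28). GAL, galanin, was higher by log2 1.01 and 1.10, whereas SST, somatostatin, was found in DoxR-v alone. Of 37 ion channel genes on the array 20 were tested, of which 4 were called higher and 3 lower (35%). The acid-sensitive potassium channel KCNK3 fell from sensitive signals of 7.89, 8.33 and 8.91 to resistant signals of 6.07, 6.67 and 6.84. Of 36 neurotransmitter receptor genes on the array 16 were tested, of which 4 were called higher and 2 lower (37.5% against 17.7% of all genes). Among them was the muscarinic receptor CHRM3 (log2 1.94 ± 0.14). Genes detected on no array were not tested.

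Among growth factor genes, ligands and receptors moved both ways. Of 28 receptor tyrosine kinase and neurotrophin genes 6 were called higher and 4 lower (35.7%), 4 and 3 of them without overlap. The related heparin-binding factors PTN and MDK went opposite ways. PTN, pleiotrophin, rose from sensitive signals of 7.27, 8.09 and 8.45 to resistant signals of 9.42, 9.57 and 9.97. MDK, midkine, fell from 9.65, 9.95 and 10.50 to 8.20, 8.56 and 8.86. ERBB3, a neuregulin receptor, was higher by log2 1.08 ± 0.13. RET, a receptor active in neuroblastoma, was higher by log2 1.62 and 1.17, and VEGFA, an angiogenic factor, lower by −1.68 and −1.30, both named after their values were seen. NDN, the imprinted growth suppressor necdin, had sensitive signals of 8.13, 8.93 and 9.58 and resistant signals of 4.39, 5.44 and 7.28 (log2 −3.21 ± 0.20), and LFNG, which modifies Notch, was at −0.81 ± 0.10.

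Of 23 tested genes of cholesterol synthesis 9 were called lower and 1 higher (43.5%), 6 of the 9 without overlap and 2 of the 9 in both comparisons. The median was log2 −0.28 (−0.19 with median scaling). Less the median of all genes it was −0.27 under both. MSMO1, a sterol oxidase, had sensitive signals of 10.53, 10.80 and 11.14 and resistant signals of 8.79, 9.28 and 9.61 (log2 −1.28 without and −1.75 with vorinostat). HMGCS1, MVK and, named after their values were seen, DHCR7, ACAT2 and NSDHL were at log2 −0.47, −0.60, −0.37, −0.35 and −0.58 without and at −1.86, −1.32, −1.87, −1.70 and −1.36 with vorinostat. For these 5 enzymes the decrease was thus larger with vorinostat, and without it only MVK passed the call. The second probe of MSMO1 was at log2 −0.43 and that of ACAT2 at −0.32, and neither was called. CYP51A1, the member called higher, lies near ABCB1.

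Of 43 tested genes of hypoxia and glycolysis 4 were called higher and 10 lower (32.6%), 2 and 7 of them without overlap, but median scaling gave 6 and 7. PFKP, a phosphofructokinase, and PFKFB3, which makes its activator, were higher by log2 1.68 ± 0.13 and 2.32 ± 0.16, while a second probe of each was not called (0.29 and 0.57). ALDOC, an aldolase, had sensitive signals of 9.90, 10.27 and 11.29 and resistant signals of 8.52, 8.81 and 9.06, and ANKRD37, a target of hypoxia-inducible factor, was at log2 −1.13 ± 0.11. The letters ACGTG, the core of the hypoxia response element, were found on either strand in the start windows of 15 of 37 list members with a window (40.5%), 4 of 8 called lower and 26.9% of all tested genes. This motif holds a CG, so its count follows that of CG dinucleotides.

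Of 29 antigen presentation and interferon genes 4 were called higher and 5 lower (31%), 3 of them in both comparisons, with IFIT1 at log2 1.30 ± 0.14, IRF9 at 0.71 ± 0.09 and OAS1 at −1.49 ± 0.12, so that interferon-inducible genes went both ways beside IFI16. Of 14 retinoic acid genes 5 were called higher and 2 lower (50%), 3 of them in both comparisons, with the receptor RARB at least 1.70-fold higher, MEIS1 at log2 0.82 ± 0.09 and RXRB at −0.97 ± 0.12. Of 22 genes of glycosphingolipid and polysialic acid synthesis 5 were called higher and 3 lower (36.4%), 4 of them in both comparisons. Its polysialyltransferases ST8SIA4 and ST8SIA2 went opposite ways (log2 1.82 ± 0.18 and −1.39 ± 0.12), without overlap in either. Of 16 deacetylase and sirtuin genes, the class that vorinostat inhibits in part, 1 was called higher and 2 lower. This share of 18.8% is near the 17.7% of all genes. SIRT1 was at log2 1.06 ± 0.12 and SIRT5 at −0.71 ± 0.09. Members called higher and lower numbered 3 and 5 of 39 for fatty acid metabolism, 0 and 3 of 34 for the amino acid response, 5 and 3 of 45 for lysosomes, 2 and 3 of 45 for chromatin, 0 and 2 of 10 for cancer-testis antigens, 0 and 3 of 16 for BEX and TCEAL genes, 2 and 0 of 16 for HOX genes, 2 and 3 of 16 for metallothioneins and iron handling and 1 and 1 of 14 for inhibitors of cyclin-dependent kinases. The shares called in these 9 lists ran from 8.82% for the amino acid response to 31.2% for metallothioneins and iron handling, against 17.7% of all genes. Of 70 ribosomal protein genes 6 were called (8.57%), of 69 nuclear genes of the respiratory complexes 3 (4.35%), of 34 proteasome genes 2 (5.88%) and of 34 heat shock and unfolded protein genes 2 (5.88%), all below the 17.7% of all genes.

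**Figure D5:**
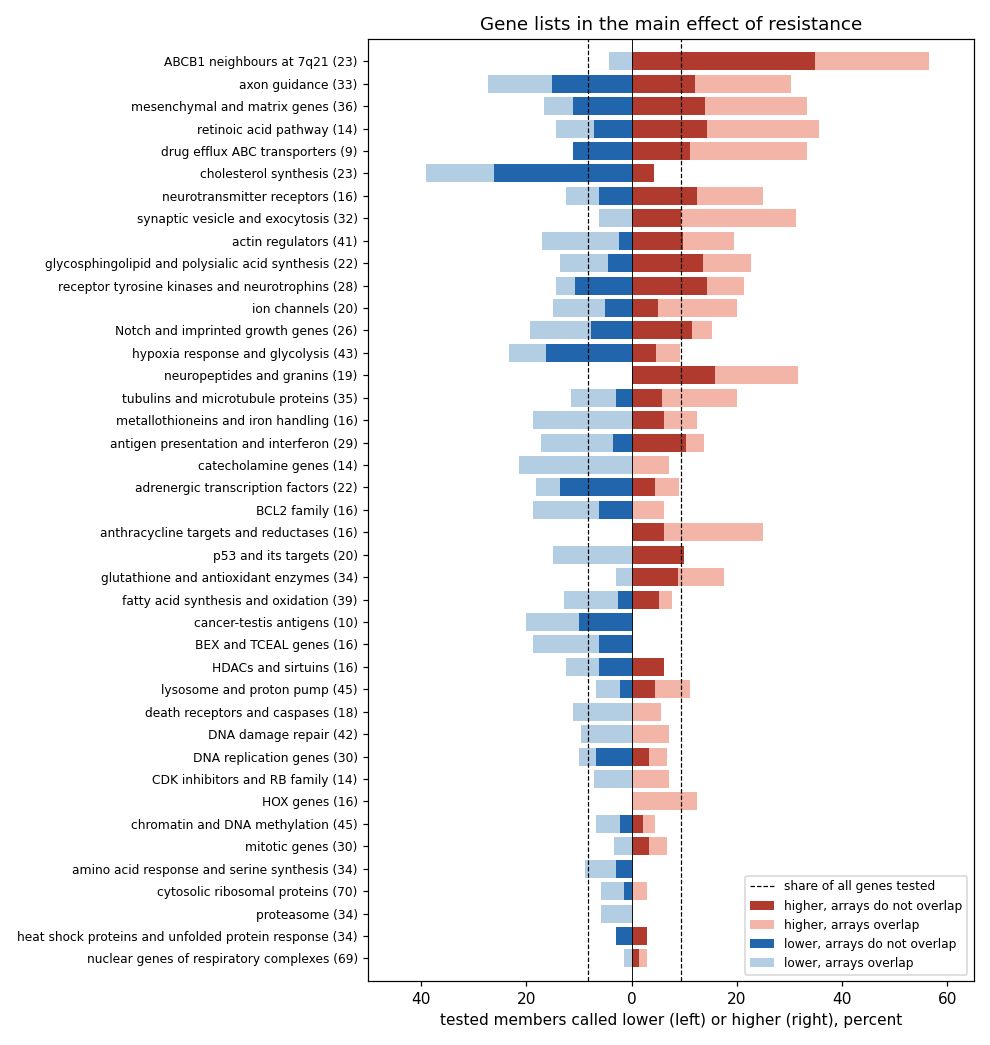
Percent of tested members called higher (right) or lower (left) in the main effect for 41 gene lists, with the number tested in parentheses, dark where the 6 resistant and 6 sensitive arrays do not overlap. Dashed lines mark the shares of all genes, 9.44% higher and 8.26% lower, and the list around ABCB1 reaches the largest share called.

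Large main effects could come from 1 comparison. Among called genes in which 1 comparison was not called or had the other sign, the largest higher effects were those of FGL2, YBX3, GPR83, SST, EPB41L3 and TRIM7. FGL2, a secreted prothrombinase, was higher by log2 6.53 without and 0.21 with vorinostat, GPR83 by 5.69 and 0.08, EPB41L3 by 5.00 and −0.28 and TRIM7 by 4.99 and −0.34. YBX3, a cold shock domain protein, was at log2 0.08 and 5.81 and SST at −0.16 and 5.93. The largest lower effects were those of MAGEB2, DLK1, IGDCC3, FEV, RNU5A-1 and LAMA4. MAGEB2, a cancer-testis antigen, was at log2 0.04 and −6.05, and DLK1, an imprinted Notch-related ligand, at −6.13 and 0.64. In 8 of these 12 genes 1 resistant line stood apart. MAGEB2 and RNU5A-1 were instead detected in WT-v alone and LAMA4 in WT alone, so that their main effects come from 1 sensitive group, and DLK1 was called in opposite directions. The arrays of both sides overlapped in each of the 12 except RNU5A-1, whose gap was 0.00 when rounded.

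For some named genes a further probe was not called. Its log2 difference was 0.47 for GSTM4, 0.58 for MCM10, −0.51 for MDK, −0.54 for SIRT5, −0.51 for STMN2, −0.16 for LFNG and −0.28 for DCN. For 3 genes 2 further probes were not called, at 0.40 and 0.27 for BCL2, at 0.47 and 0.26 for PLXNA4 and at 0.48 and −0.19 for WDR33. All but the last of these had the direction of the brightest probe.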

How the data were processed

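Total RNA of 12 SK-N-Be(2)C specimens, 3 in each of 4 groups, had been hybridised to Illumina HT-12 bead arrays. The deposited table held 47323 probes with a raw signal intensity and a detection p-value per array, and both were used. Medians of the deposited intensities differed between arrays (98.75 to 125.2), and whether a background had been subtracted is not given in the sources used here. A second table held the authors' normalized intensity values (lumi 2.13.3 in R 3.0.1 per the submitters' processing notes) on a linear scale, with a median of 149.1 on every array and no centring of genes, and served as an alternative. Signals were corrected with normexp, with parameters inferred from the detection p-values and an offset of 16, quantile-normalized and taken to log2 (limma 3.58.1, R 4.3.3).

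Probes detected at p below 0.01 on at least 1 array were kept (21730). The platform annotation gave 1 symbol for 30113 probes, several for 8 and none used here for 17202, and 30074 matched RefSeq. Each of 12138 genes was represented by the probe with the highest mean. A model with 1 mean per group was fitted to all probes, and p-values of limma's moderated test were adjusted over all probes by Benjamini-Hochberg. On simulated data for the main effect (21730 probes), 94 of 100 changes of log2 1 and all 100 of log2 2 were recovered, and 8 unchanged probes were called. These data held only the spread between specimens. They held no effect of vorinostat and no difference between selected lines, so the simulation does not cover those sources. Where a side was not detected, the fold is a lower bound on the main effect, against the lowest detected signal of each array. The number of arrays limits the precision.

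Named genes were the 15 with the widest gap in each direction among genes called in both comparisons, up to 4 called genes of each list, widest gap first, the 6 largest in each direction that 1 comparison carried, and the 3 on either side of the limit of no overlap. Other genes were named after their values were seen. The members and lists were chosen with earlier results of these data known. Blocks of neighbouring genes used gene order in RefSeq only. Alternatives were other background corrections, scaling, detection filters, designs and thresholds, the deposited normalized values, the replicate number as a block, and leaving out each array. The other cell line of the study was not used here.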

Additional observations from a re-analysis of the deposited data

Results flagged for a closer look

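The difference between the comparisons, DoxR-v minus WT-v less DoxR minus WT, was tested as a contrast of the limma fit (adjusted p under 0.1, fold over 1.5). It was called for 42.4% of all genes tested, so passing it is common. Of the genes chosen by the naming rule and printed in the text, 81 passed it, and genes of the rule that are not printed were not counted. The separate selection of the lines also enters this difference, and the cause was not tested. A positive value is a higher effect with vorinostat.

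Among genes with the widest gaps, which were called in both comparisons, the difference in log2 was 3.44 for CD44, 1.34 for NMU, 1.25 for CALCB, 0.896 for ELAPOR2, 1.66 for CNTNAP2 and 1.15 for GSTO2. It was −0.727 for IFI16, −0.845 for SOCS2, −1.97 for BDNF, −1.58 for CAPN6, −2.83 for GRIN1, −1.55 for LMO2 and −1.79 for NPY. Among the lower genes whose difference was not called it was negative, as for NELL1 and LIN28B (both −0.56), except for FGL1 (0.09). Among the lower genes with a called difference it was positive, so that the decrease was smaller with vorinostat. The values were 2.11 for TCEAL7, 0.986 for PDGFRB, 0.742 for TEX19, 1.19 for CARD9, 1.76 for COLEC11, 1.71 for AMHR2, 0.849 for PALLD, 1.75 for TRAF3IP2 and 1.5 for MPP1.

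Among drug transport and metabolism genes and neighbours of ABCB1 it was −1.25 for ABCB1, −0.708 for ABCC4, −2.1 for ABCA2, −1.69 for CROT, −0.884 for TMEM243, −0.763 for CYP51A1, −2.41 for DBF4, −4.23 for AKR1C2, −0.777 for GSTM4 and 0.948 for CBR3. For death and cell cycle genes it was 0.995 for BCL2L13, −0.89 for BCL2, 1.18 for TNFRSF10B and 7.88 for CDKN1A.

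For differentiation and matrix genes it was 0.695 for EBF1, 1.25 for LMO3, −0.687 for STMN2, −2.19 for MAOA, 2.41 for SLC18A1, 4.97 for DBH, 3.37 for TH, 3.68 for DCN, −5.01 for COL3A1, 0.585 for VCL and 1.13 for MAPT. For neuronal and growth factor genes it was 3.28 for PROK2, 0.76 for UNC5A, 1.04 for SYT4, −2.79 for RAB27B, 0.937 for KCNK3, −1.63 for CHRM3, 1.02 for PTN, 0.772 for MDK and 1.54 for NDN. For metabolic and other genes it was −0.726 for MVK, −1.39 for HMGCS1, −0.729 for PFKP, 1.22 for PFKFB3, 0.691 for NEU1, 0.967 for OAS1, −0.786 for SIRT5, −1.17 for ST8SIA4 and −1.66 for ST8SIA2.

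The genes carried by 1 comparison differed by construction of their choice, with −6.32 for FGL2, 5.74 for YBX3, −5.61 for GPR83, 6.09 for SST, −5.28 for EPB41L3, −5.34 for TRIM7, −6.09 for MAGEB2, 6.77 for DLK1, 4.07 for IGDCC3, 3.94 for FEV, −3.43 for RNU5A-1 and 3.21 for LAMA4. Near the limit of no overlap the values were −0.772 for CDC14A, 1.2 for WDR33, 0.662 for FAAH and −0.715 for SBK1.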

How the results depend on the processing

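None of the 184 genes chosen by the naming rule changed direction under the alternatives run, which did not cover genes named after their values were seen. With the deposited normalized values the main effect called 802 genes, DoxR minus WT 1961, DoxR-v minus WT-v 1341, their difference 2931 and vorinostat 644, with 441 called genes free of overlap and 251 called in both comparisons. Without background correction the counts were 1000, 2351 and 1636, with 841 for vorinostat, 529 free of overlap and 315 in both. An offset of 50 gave counts of 1444, 3141 and 2265, with 1213 for vorinostat, 691 free of overlap and 471 in both. At a fold over 2 they were 648, 1785, 1121, 2807 for the difference, 504 for vorinostat and 202 in both. Leaving out each array gave 2136 to 2336, 3953 to 4584, 2938 to 3339, 4797 to 5491 for the difference, 1811 to 2049 for vorinostat, 843 to 938 free of overlap and 663 to 733 in both. With 2 means only 1643 genes were called and with additive terms 1964.

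Of these 184 genes 62 lost the call with the deposited values, 55 without background correction, 26 at the offset of 50, 15 with median scaling and 22 without some array. Median scaling moved the median effect of all genes from −0.0135 to 0.083, and under it chromosome 4 was at 0.0638 and chromosome 6 at −0.0314 in DoxR minus WT. Same-numbered replicates correlated between −0.27 and 0.114, with 1 of 18 pairs over 0.1, so the numbers do not pair the arrays. The fit with the replicate block called 2148 genes in the main effect, 4088 without vorinostat, 3086 with it, 5039 for the difference and 680 in both.

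The signal of dim genes lies close to background, which limits their folds. Each side holds 2 groups, and 1 selection with and 1 without vorinostat cannot show how far another selection would differ.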
